A study of Homo sapiens with 6 samples.

Results

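The genes described here encode the proteins of the cytosolic ribosome, measured in HepG2.2.15, a line derived from human HepG2 hepatoma that carries hepatitis B virus DNA and is grown with G418. They were taken by name: protein-coding genes of the deposited table called RPL or RPS with a number, with RPSA, RPLP0, RPLP1, RPLP2 and FAU, and without kinases, binding partners, Y-linked copies and readthrough genes of similar names. This gave 86 genes of 62709 in the table, 33 of the small (40S) subunit and 53 of the large (60S) subunit. A total of 6 libraries of polyadenylated RNA were compared, 3 from cells given YQSHJD (Yinqi Sanhuang Jiedu Decoction, a traditional Chinese medicine added as a dilution of freeze-dried powder) and 3 from control cells. All cells were of 1 line with a genotype labelled WT, and the incubation lasted 3 days with the drug at 10% of the medium. The control is labelled physiological saline in one field and PBS in another, and it is called saline below. Nothing in the labels says whether the 3 libraries of a group came from separate cultures, so p-values measure the spread between these libraries, which may be technical.

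A ribosome is made of ribosomal RNA and a fixed set of proteins, most of them present once per particle. The small subunit reads the mRNA, and the large subunit joins amino acids and passes the new chain through an exit tunnel. Most mRNAs for ribosomal proteins start with a C followed by a run of pyrimidines, the 5′ terminal oligopyrimidine (TOP) sequence, through which growth signals acting on mTOR and LARP1 set how well they are translated and how long they are kept. Cells make these proteins in large amounts, and members that are not built into ribosomes are degraded.

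Of the 86 genes, 79 reached at least 1 FPKM (a read count scaled by gene length and library depth, on the authors' own gene lengths and depth) in at least 3 of the 6 libraries and were tested. Under the authors' scaling 23 of the 79 rose with YQSHJD and 0 fell at an adjusted p under 0.05 (limma, Benjamini-Hochberg adjustment over 10966 genes), and the other 56 did not pass. The share that rose, 29.1%, lay near that of all tested genes, of which 23.3% rose, while 18% of all tested genes fell (41.4% in either direction). The direction turned with the scaling: rescaled to TPM, 1 member was higher and 21 lower, where 7.88% and 40.2% of all tested genes were. TPM divides by summed FPKM, of which genes of the mitochondrial genome made up 38.8% to 43.5% with saline and 43.6% to 52.1% with YQSHJD. Without these genes TPM rescaling gave 10 members higher and 13 lower, where 12.6% and 29.8% of all tested genes were. With the recovered reads as depth 7 members were higher and 7 lower, where 12.8% and 29.5% of all tested genes were. With median-of-ratios scaling 16 were higher and 1 lower, where 19.8% and 21% of all tested genes were. A scaling shifts all genes of a library alike, and rises and falls below are those under the authors' scaling unless another is named. The median log2 difference, YQSHJD minus saline, was 0.13 over the members and 0.04 over all tested genes, and after TPM rescaling the same medians were -0.23 and -0.26.

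Differences ran from -0.30 for RPL30 to 0.77 for RPS26 on the log2 scale, and 0 of 79 members reached a difference of 1 in either direction, which 5.31% of all tested genes did. The members' difference at the 10% point of their order was -0.08 and at the 90% point 0.49, compared with -0.55 and 0.58 over all tested genes. All 3 YQSHJD libraries lay above all 3 saline libraries in 35 members, or 44.3%, where the share over all tested genes was 30.7%. They lay below in 2 members, RPL30 and RPLP2, where the share over all tested genes was 24.6%. In the remaining 42 members the groups overlapped. Of the 23 calls, 12 held with each library left out in turn (RPL4, RPL6, RPL7, RPL7L1, RPL14, RPL24, RPS3A, RPS4X, RPS6, RPS24, RPS26 and RPSA). The other 11, among them RPL5, RPL9, RPL11, RPL12, RPL17, RPL22, RPL23A, RPL36AL, RPS7 and RPS12, were each lost without saline 1, and all but RPL11 without saline 2.

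**Figure D1:**
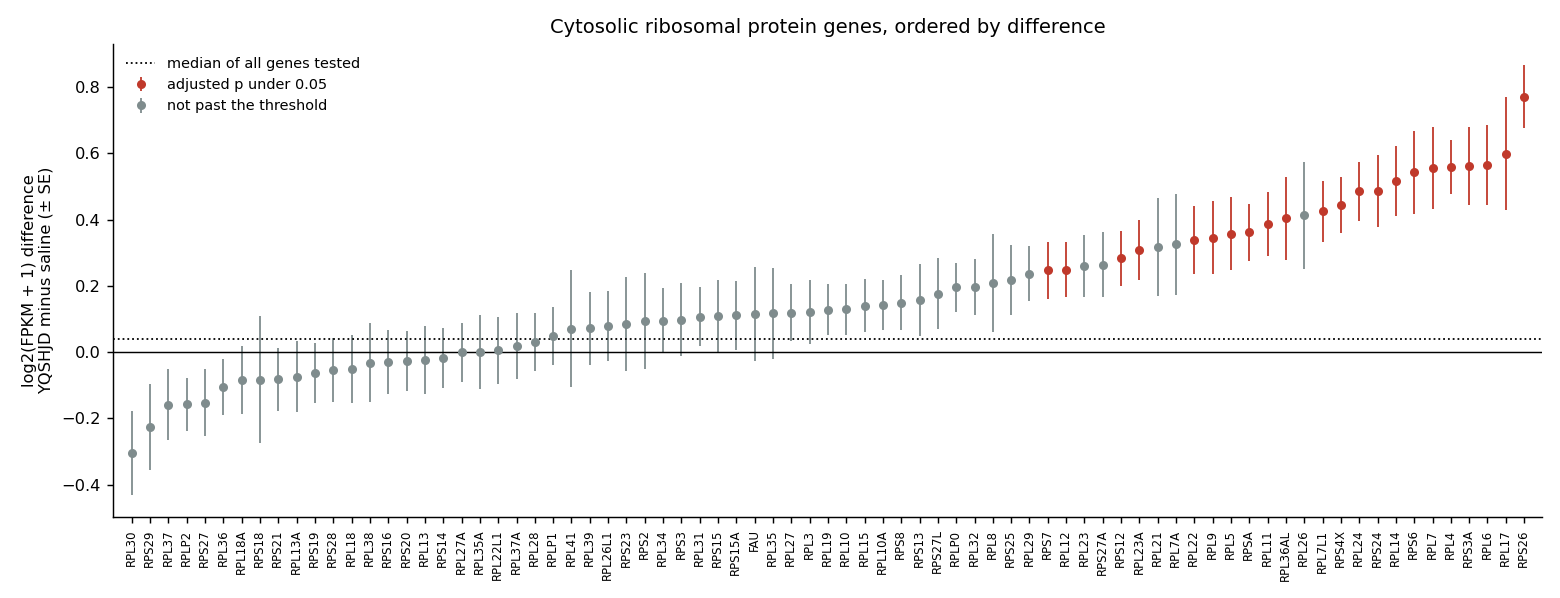
Difference in log2(FPKM + 1), YQSHJD minus saline, with its standard error for the tested ribosomal protein genes reported by name, ordered from the lowest to the highest. Values are under the authors' scaling, and TPM rescaling turns the median of the members negative. Red points passed the test, grey points did not, and the dotted line is the median of all tested genes at 0.04. RPS26 stands at the top with 0.77 and RPL30 at the bottom with -0.30.

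RPS26 had the highest difference of all members. Its protein sits at the mRNA exit of the small subunit, touches the mRNA just upstream of the codons being read, and is mutated in some families with Diamond-Blackfan anaemia. The gene (ENSG00000197728, chromosome 12, 56041351 to 56044697, plus strand in the deposited table) had 45.6, 46.7 and 46.4 FPKM in the saline libraries and 87.7, 80.2 and 71.8 FPKM in the YQSHJD libraries. The YQSHJD libraries were all far above the saline libraries, which hardly differed among themselves. The mean rose 1.73-fold (log2 difference 0.77, SE 0.09, adjusted p = 0.000449 with limma). RPS26 was the only member higher in the test and in all 20 alternatives run, where its log2 difference ranged from 0.41 to 0.84. Its mean in the saline libraries was 46.3 ± 0.57 FPKM (SD, n = 3) and in the YQSHJD libraries 79.9 ± 7.93 FPKM (SD, n = 3). Its 35 pseudogenes in the table held 12 to 33 reads in all per library, against 1427 to 2322 for the gene itself.

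Large subunit genes made up 5 of the next 7 members. RPL4, whose protein lines the exit tunnel with a long loop, had 199, 200.3 and 223 FPKM with saline and 305, 317 and 295 FPKM with YQSHJD. The groups were well apart, and RPL4 rose 1.47-fold (log2 difference 0.56, SE 0.08, limma adjusted p = 0.00103). This call held in 19 of the 20 alternatives and was lost with TPM rescaling, where the adjusted p was 0.131. RPL6, RPL7 and RPL14, proteins on the outside of the large subunit, had log2 differences of 0.56, 0.56 and 0.52, each with no overlap between the groups.

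RPL17 stood second, with a log2 difference of 0.60, but at a low level: 2.87, 3.00 and 2.76 FPKM with saline and 3.45, 5.17 and 6.37 FPKM with YQSHJD. Its YQSHJD libraries spread widely, and YQSHJD 1 lay near the saline range. Its protein sits at the rim of the exit tunnel, a standard part of the ribosome, yet the gene had only 107 to 217 reads per library. Whether this low value reflects expression or how reads were assigned was not tested. The call (limma adjusted p = 0.0224) held in 9 of the 19 alternatives that tested it, and was lost without saline 1, 2 or 3 (limma adjusted p = 0.069, 0.0517 and 0.0732) or without YQSHJD 2 (0.0659).

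In the small subunit RPS3A, RPS6 and RPS24 followed RPS26. RPS6, the substrate of the S6 kinases downstream of mTOR, had 182, 199.8 and 229 FPKM with saline and 340, 296 and 257 FPKM with YQSHJD. Its groups did not overlap, with YQSHJD 1 highest and YQSHJD 3 closest to saline (log2 difference 0.54, SE 0.12, limma adjusted p = 0.00935). RPS3A, which lies near the mRNA exit, had 142, 159 and 169.7 FPKM with saline and 270.3, 221 and 208 FPKM with YQSHJD. Its 3 YQSHJD libraries kept the same order as in RPS6 and lay above all saline libraries, a 1.48-fold rise (limma adjusted p = 0.00602). RPS24 rose by 0.49 and RPS4X, encoded on the X chromosome, by 0.44 on the log2 scale.

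**Figure D2:**
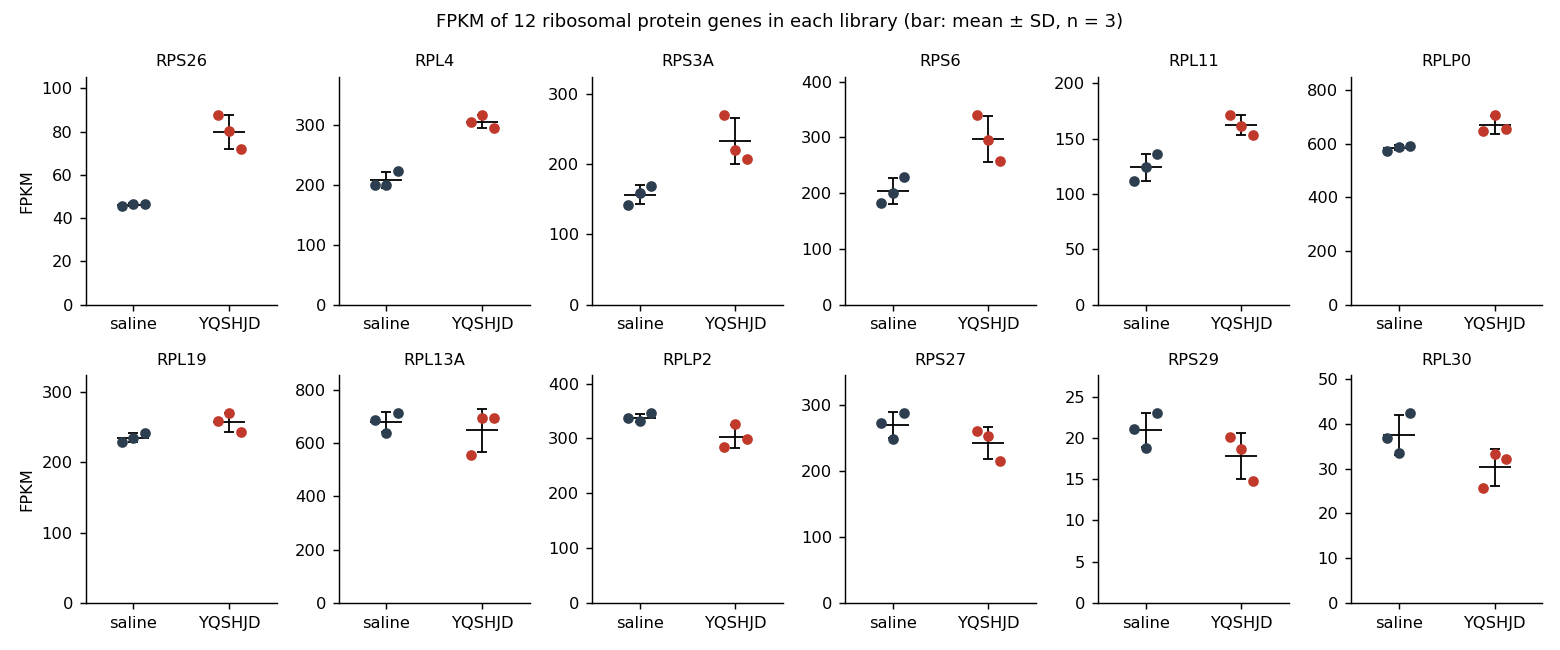
FPKM of 12 ribosomal protein genes in each library on axes that start at 0, with saline in dark points, YQSHJD in red points, and a bar for the mean ± SD (n = 3). RPS26 and RPL4 show groups that stand apart, RPLP0 and RPL19 lie 1.15-fold and 1.09-fold higher with YQSHJD, and RPL30 and RPLP2 are the members whose YQSHJD libraries lie below all saline libraries. The 12 genes were picked for display after their values were seen.

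At the other end stood RPL30, RPS29, RPL37, RPLP2 and RPS27, none of which passed the test. RPL30, a small protein of the large subunit at the subunit interface, had 36.9, 33.5 and 42.3 FPKM with saline and 25.6, 33.2 and 32.1 FPKM with YQSHJD. The groups did not overlap, but saline 2 and YQSHJD 2 lay close together (log2 difference -0.30, SE 0.13, limma adjusted p = 0.0862). It was called lower in 7 of the 20 alternatives, among them TPM rescaling, median-of-ratios scaling and limma-voom. RPLP2, one of the acidic stalk proteins that recruit the elongation factors, had 337, 332 and 346 FPKM with saline and 284, 326 and 299.8 FPKM with YQSHJD. The groups lay side by side without overlap (log2 difference -0.16, limma adjusted p = 0.147). RPL30, RPL37, RPS27 and RPS29 had a negative difference under every one of the 20 alternatives, and 17 members had a positive one under every alternative.

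The scaling of the libraries cannot move one member against another, so members were also set against the family itself. With each library centred on the median deviation of the ribosomal protein genes, an alternative added after the data were seen, 10 members lay higher and 7 lower with YQSHJD than the set as a whole at a limma adjusted p under 0.05. The higher ones were RPL4, RPL6, RPL7, RPL14, RPL24, RPS3A, RPS4X, RPS6, RPS24 and RPS26. The lower ones were RPL30, RPL36, RPL37, RPLP2, RPS21, RPS27 and RPS29. Over all tested genes, 12.5% were called higher and 26.8% lower on this scale. The members' share of higher calls lay near the first of these, and their share of lower calls was below the second. The centring itself placed the median near 0 for the members (-0.02) and at -0.11 over all tested genes. This comparison of shares therefore says nothing about the members as a set.

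**Figure D3:**
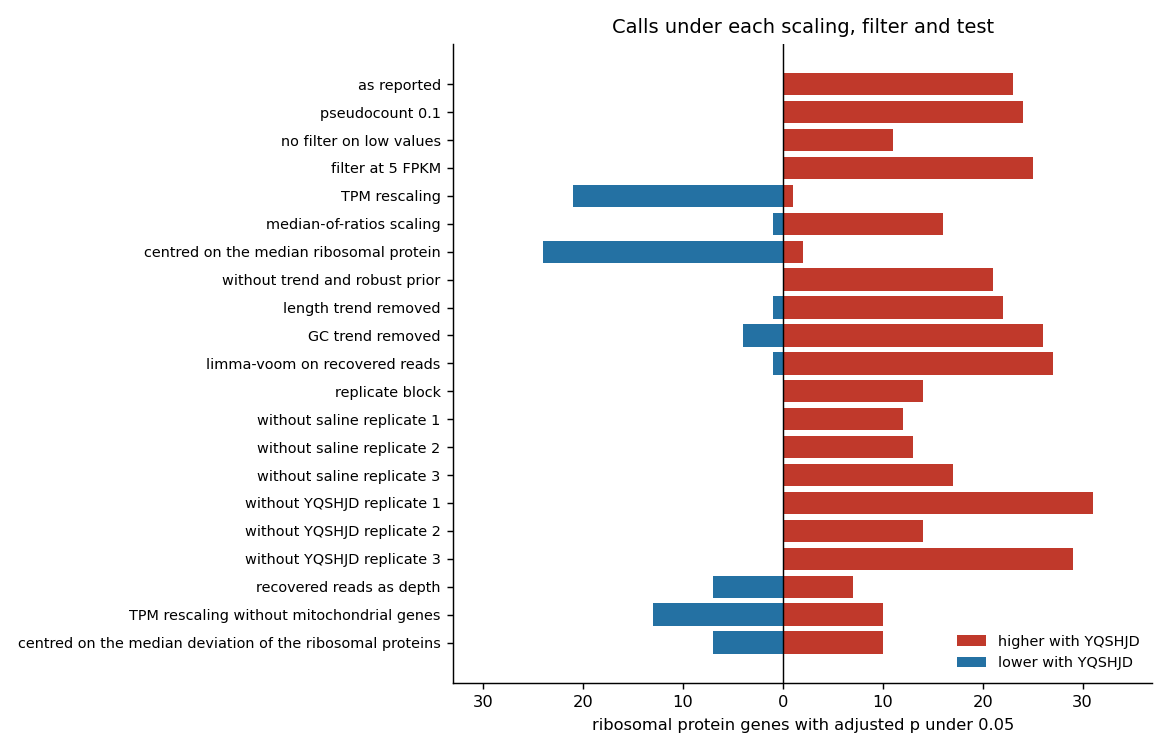
Number of ribosomal protein genes with an adjusted p under 0.05, higher with YQSHJD to the right in red and lower to the left in blue, for the test as reported and each alternative. The scale alone moved the balance from 23 higher and 0 lower as reported to 1 higher and 21 lower with TPM rescaling.

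Of the 30 tested small subunit genes 9 rose (median log2 difference 0.11), and TPM rescaling made 1 higher and 9 lower (median -0.24). Of the 49 tested large subunit genes 14 rose (median 0.13), and TPM rescaling made 0 higher and 12 lower (median -0.23). The shares that rose, 30% and 28.6%, lay near the 23.3% of all tested genes. After TPM rescaling 7.88% of all tested genes were higher and 40.2% lower. The summed FPKM of small subunit genes was 0.732, 0.725 and 0.736 of that of large subunit genes in the saline libraries and 0.740, 0.738 and 0.744 in the YQSHJD libraries. This ratio does not depend on the scaling of a library, and it was higher in every YQSHJD library than in any saline library. The means were 0.731 ± 0.0057 with saline and 0.741 ± 0.0031 with YQSHJD (SD, n = 3). An exact permutation test, two-sided, gave p = 0.1, the smallest 3 against 3 libraries can give, and 0.15 adjusted over 9 summary measures.

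Among working parts of the ribosome, the exit tunnel and its rim had 4 of 9 genes that rose, with a median of 0.31, which TPM rescaling turned to 0 higher, 1 lower and -0.05. These were RPL4, RPL17, RPL22 and RPL23A, while RPL19, RPL26, RPL31, RPL35 and RPL39 did not pass. Of the 8 decoding and mRNA path genes of the small subunit 2 rose, RPS26 among them. For each part, the share to set beside is the 23.3% of all tested genes that rose. With TPM rescaling 7.88% of all tested genes were higher and 40.2% lower. Of the 4 genes of the stalk only RPL12, the protein of its base, passed the test, with a log2 difference of 0.25 (limma adjusted p = 0.0413) that TPM rescaling turned to -0.11. RPLP0, which anchors the stalk, stood at 0.20 and RPLP1 at 0.05. The ubiquitin fusions RPS27A and FAU, from which ubiquitin or a ubiquitin-like protein is cut off to leave a ribosomal protein, stood at 0.26 and 0.11, and 0 of the 2 passed.

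RPL5 and RPL11 carry the 5S ribosomal RNA into the large subunit and, outside the ribosome, bind the ubiquitin ligase MDM2. RPL5 had 115, 123 and 144 FPKM with saline and 179, 161 and 148 FPKM with YQSHJD (log2 difference 0.36, limma adjusted p = 0.0314). RPL11 had 112, 124 and 136 FPKM with saline and 171, 162 and 153 FPKM with YQSHJD (log2 difference 0.39, limma adjusted p = 0.013). Both rose without overlap between the groups. The RPL5 call held in 8 and the RPL11 call in 13 of the 20 alternatives. With TPM rescaling the differences were -0.0028 for RPL5 and 0.027 for RPL11. Leaving out saline 1 gave limma adjusted p of 0.126 and 0.064, and RPL5 also lost its call without saline 2 (0.101) or YQSHJD 2 (0.074).

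Of 19 members mutated in Diamond-Blackfan anaemia, an inherited failure of red cell production, 17 were tested and 5 rose, namely RPS26, RPS24, RPL11, RPL5 and RPS7 (0.25, or -0.11 with TPM rescaling), or 29.4%, where TPM rescaling gave 1 higher and 5 lower. Small nucleolar RNAs, which guide the modification of ribosomal RNA, lie within the span of 28 tested members. Of these hosts 8 rose, with a median of 0.14 (0 higher and 10 lower with TPM rescaling). Of the 51 tested members that hold none 15 rose, with a median of 0.12. The share that rose was 28.6% in the hosts, 29.4% in the others and 23.3% in all tested genes.

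A total of 8 members are paralogs of a standard ribosomal protein. RPL7L1 rose from 22.1 to 30.1 FPKM (log2 difference 0.42) and RPL36AL by 0.40, while RPL22L1, RPL26L1 and RPS27L did not pass. RPL10L and RPL39L were listed at 0 in every library, and RPL3L, known from heart and skeletal muscle, did not reach the filter. The ratio of a gene to its paralog does not depend on the scaling of a library, and the log2 ratio of RPL22 to RPL22L1 was 0.54, 0.81 and 0.77 with saline and 1.11, 1.01 and 1.05 with YQSHJD. The YQSHJD libraries lay above all saline libraries. The log2 ratio of RPS27 to RPS27L was 4.42, 4.17 and 4.37 with saline and 3.90, 4.06 and 3.99 with YQSHJD, below all saline libraries. For RPL26 over RPL26L1 it was -0.98, -1.03 and -1.09 with saline and -0.31, -0.87 and -0.85 with YQSHJD. These groups did not overlap (means -1.03 and -0.68), but only YQSHJD 1 lay far from the saline libraries. For RPL7 over RPL7L1 the means were 2.20 and 2.32 with overlap. Each of the 3 pairs without overlap reached the smallest exact permutation p of 0.1 and RPL7 had 0.4, which over the 4 pairs tested gave adjusted p of 0.133 and 0.4 (Benjamini-Hochberg).

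The 7 members that did not pass the filter included RPL36A, RPS10, RPL3L, RPL39L, RPL10L and RPS9. RPS9, RPS10 and RPL36A encode standard parts of the ribosome, and a value of 0 is given here only as listed at 0. RPS9 was listed at 0 reads in every library. The table holds 1406 pseudogenes of ribosomal proteins, of which 183 to 251 had reads in a library. Together these held reads equal to 5.09% to 5.71% of those of the members. For RPL36A, RPL7A, RPS10, RPS18 and RPS28 the pseudogenes held more reads than the gene in all 6 libraries, so that values for these 5 members are uncertain. RPS28 had 1222 to 1875 reads and its pseudogenes 2922 to 4131.

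Levels spread widely, from a mean of 1.02 FPKM for RPS25 to 1058 FPKM for RPS12 over all 6 libraries, with a median of 129 FPKM. The 5 highest included RPS12, RPL13A, RPLP0 and RPL8, and the 5 lowest RPL22L1, RPL7A, RPL17, RPS18 and RPS25. RPL7A, RPL17, RPS18 and RPS25 encode standard parts of the ribosome, yet had few reads. Per library these were 19 to 25 for RPS25, 20 to 51 for RPS18, 127 to 200 for RPL7A and 107 to 217 for RPL17. Whether such low values reflect expression or how reads were assigned was not tested. The order depends on the gene length used by the authors, which was 0.906 to 16.9 times the median length of the coding transcripts. Per kilobase of that transcript length RPLP0 stood at rank 1, RPL13A at rank 4 and RPS12 at rank 26. RPS12, a small subunit protein, had 927, 957 and 977 FPKM with saline and 1155, 1251 and 1082 FPKM with YQSHJD, 1.22-fold higher without overlap (limma adjusted p = 0.0249), with a log2 difference of 0.28 that TPM rescaling turned to -0.079. RPLP0, often used as a reference gene, had 574.5, 588 and 593 FPKM with saline and 648, 708 and 656 FPKM with YQSHJD. Its YQSHJD libraries lay above all saline libraries, but it did not pass the test (log2 difference 0.20, limma adjusted p = 0.0644).

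Within the set, members with a long coding sequence had higher differences than short ones, a split chosen after the values were seen. The share of all tested genes that rose was 23.3%. Of the 26 members with the longest coding sequences (588 to 1281 bases) 13 rose, with a median log2 difference of 0.31. Of the 27 with the shortest (75 to 426 bases) 4 rose, with a median of 0.07, and all 4 genes with a negative difference under every alternative belonged to these. RPS26 was an exception, a short gene at the top. Coding length here is the longest annotated for a gene, which need not be its main form. For RPS24, counted among the long members that rose, it was 867 bases, above the median length of its coding transcripts (583 bases). Spearman's correlation across the 79 genes was 0.53, and 0.55 after a trend on GC content had been removed from each library. Across 9580 tested genes with a coding length it was -0.09. Genes share libraries and are not replicates, so these are descriptions.

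Differences also went with base composition. Of the 27 members with the lowest GC content (37.4% to 45.1%) 14, or 51.9%, rose, with a median of 0.35. Of the 26 with the highest (50.9% to 63.7%) 2, or 7.69%, rose, with a median of 0.10. The share over all tested genes was 23.3%. Spearman's correlation between the log2 difference and GC content was -0.44 in the members and -0.45 across 10811 tested genes. Among the YQSHJD libraries, the deviation of YQSHJD 1 from the member means had a Spearman correlation of -0.66 with GC content, that of YQSHJD 2 one of -0.17 and that of YQSHJD 3 one of 0.08. Without YQSHJD 1, 31 members rose and 0 fell, where 24.4% and 18.4% of all tested genes did. After the GC trend had been removed 26 rose and 4 fell, where 23% and 21.7% did, and those that fell were RPL37, RPS20, RPS27 and RPS29. Of the 26, only 17 were among the 23 genes called as reported, so the called genes changed in part. The part of base composition, coding length and RNA quality in the differences was not tested.

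**Figure D4:**
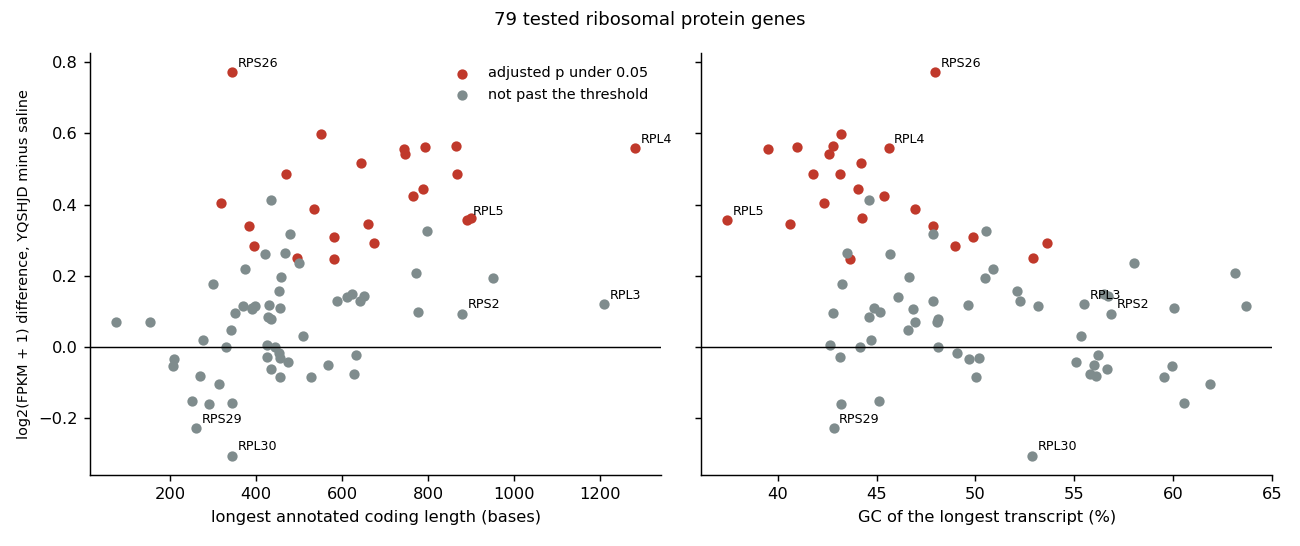
Difference in log2(FPKM + 1), YQSHJD minus saline, of the 79 tested members against the longest annotated coding length in bases (left) and the GC content of the longest transcript in percent (right), 1 point per gene, red where the test was passed. Differences tend to be higher at longer coding lengths (Spearman's correlation 0.53) and lower at higher GC content (-0.44), with RPS26 apart from both.

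The start sites of the genes with the highest and the lowest differences are shown because the TOP sequence there is the feature the family is known for. Of the 86 members 69 matched the promoter table of RefSeq (GRCh38.p14). Each line gives 25 bases before to 15 bases from the start on, 5′ to 3′ on the gene's strand, with the longest pyrimidine run that touches the 5 bases before to 10 bases after the start in capitals. For RPL6, which has 2 annotated starts, the one with the longer run is shown. The 4 highest members with an entry come first and the 4 lowest after them.
RPS26 (chr12:56041893-56041932, +): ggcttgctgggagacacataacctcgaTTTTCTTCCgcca
RPL17 (chr18:49492451-49492490, -): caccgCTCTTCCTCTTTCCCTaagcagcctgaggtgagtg
RPL6 (chr12:112409271-112409310, -): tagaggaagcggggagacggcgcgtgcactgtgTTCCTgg
RPS3A (chr4:151099603-151099642, +): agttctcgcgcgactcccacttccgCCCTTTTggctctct
RPS29 (chr14:49598696-49598735, -): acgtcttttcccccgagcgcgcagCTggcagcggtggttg
RPLP2 (chr11:809942-809981, +): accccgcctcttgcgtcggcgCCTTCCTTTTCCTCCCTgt
RPS27 (chr1:153990737-153990776, +): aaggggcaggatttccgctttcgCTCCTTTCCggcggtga
RPL36 (chr19:5690270-5690309, +): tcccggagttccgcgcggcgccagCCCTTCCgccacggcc

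RPLP2 and RPS27, which did not pass the test, have a C at the annotated start within runs of 17 and 9 pyrimidines. RPS3A and RPL36 also have a C there, within runs of 7. The run of 9 in RPS26 begins after a G at the start, the run of 16 in RPL17 ends before the start, and the run of 5 in RPL6 lies after it. RPS29 has a T at the start, in a run of 2. Across the matched members 55 of 69, or 79.7%, had a run of at least 8 pyrimidines that touched the 5 bases before to 10 bases after an annotated start, compared with 16.9% of the 15843 protein-coding genes in the table. A C stood at a start in 75.4% of members and 14.99% of protein-coding genes. Of the 19 matched members that rose 14 had such a run, and of the 46 matched and tested members that did not pass 38 had one, with median runs of 11 and 12. In the 300 bases around the start, CCGGAAG, a core of ETS factor sites, occurred on either strand in 34.8% of members and 16.5% of protein-coding genes. AAGATGGC, a core of YY1 sites, occurred in 11.6% and 4.66%, GGGCGG, an SP1 core, in 59.4% and 64.3%, and TATAAA in 10.1% and 12.4%. Over all 27305 genes in the table, which include non-coding ones, the share with GGGCGG was 48.3%, below that of the members. Windows, run length and motifs were chosen after expression values had been seen, and matches describe letters only.

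As a whole, the members summed to 14690, 14496 and 15430 FPKM in the saline libraries and 15798, 17650 and 16065 FPKM in the YQSHJD libraries. These sums lay 1.11-fold higher with YQSHJD and did not overlap (exact permutation test, two-sided, p = 0.1, the smallest possible, and 0.15 adjusted over 9 such summary measures). As a share of recovered reads, however, the members made up 4.44%, 4.38% and 4.77% with saline and 4.13%, 4.63% and 4.41% with YQSHJD. These shares overlapped, with means of 4.53% ± 0.21 and 4.39% ± 0.25 (SD, n = 3, exact permutation p = 0.5). As a share of summed FPKM the members made up 4.18%, 4.02% and 4.51% with saline and 3.32%, 3.86% and 3.81% with YQSHJD. On this measure every YQSHJD library lay below every saline library (exact permutation p = 0.1, 0.15 adjusted). Outside the genes of the mitochondrial genome the shares of reads were 5.30% ± 0.19 and 5.48% ± 0.25 (SD, n = 3, exact permutation p = 0.5). The shares of summed FPKM there were 7.19% ± 0.16 and 6.98% ± 0.25 (SD, n = 3, exact permutation p = 0.3), with overlap. Mitochondrial genome genes themselves held 13.5% to 15.7% of reads with saline and 17.6% to 22.4% with YQSHJD, and 16S rRNA, MT-RNR2, went from 10307 to 10596 FPKM with saline to 30256 to 39607 FPKM with YQSHJD. All these values are relative within a library of a bulk sample, so they show neither the number of cells nor the RNA per cell.

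**Figure D5:**
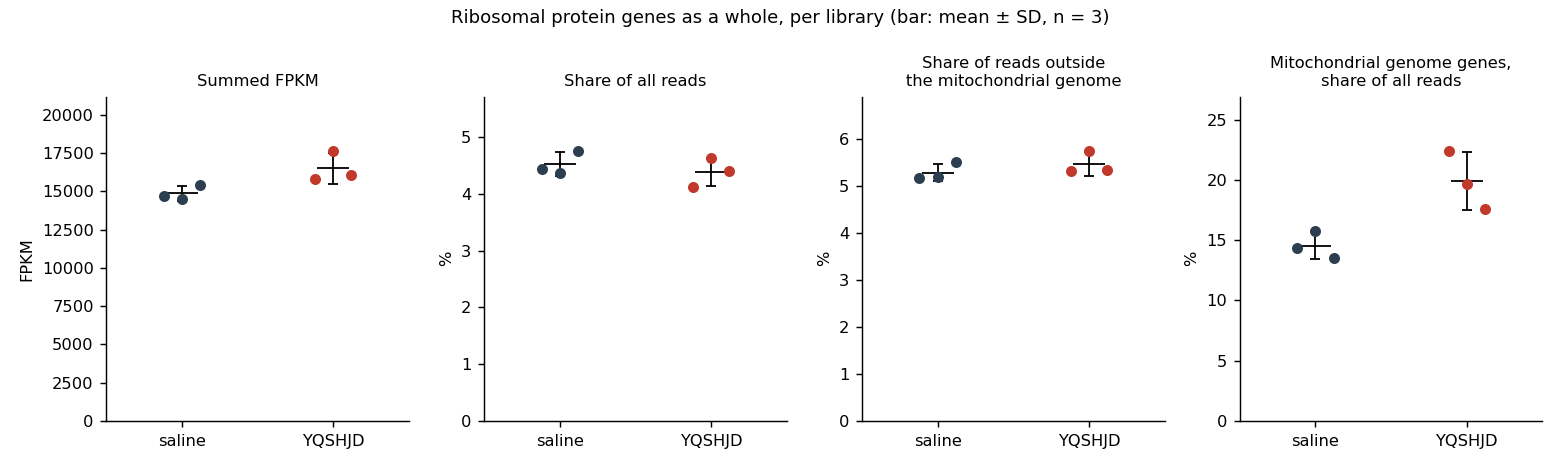
Summed FPKM of the 86 ribosomal protein genes, their share of all recovered reads, their share of reads outside the mitochondrial genome, and the share of reads in mitochondrial genome genes, per library with the mean ± SD (n = 3) and axes from 0. The sum lies 1.11-fold higher with YQSHJD, whereas both shares of reads overlap between the groups.

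Depth was 13370372 to 15615649 reads in genes per library. Correlations of log2 values across the members were 0.979 to 0.986 between YQSHJD 1 and the saline libraries and 0.990 to 0.996 between the other YQSHJD libraries and the saline libraries. All 8 hepatocyte and hepatoma markers were above the filter (5.67 to 2605 FPKM), and 0 of 5 fibroblast markers reached 1 FPKM. Of 4 leukocyte markers only LYZ did, at 87.1 to 223 FPKM, and of 4 endothelial markers PECAM1 and VWF did, at up to 5.03 FPKM.

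Genes that work with ribosomal proteins were read from lists of known members. Their counts are to be set beside all tested genes, of which 23.3% rose and 18% fell. With TPM rescaling 7.88% of all tested genes were higher and 40.2% lower, and with the recovered reads as depth 12.8% and 29.5%. Of 20 tested TOP mRNAs outside the naming rule, nearly all for proteins that are not part of the ribosome (RACK1 binds the small subunit), 11 rose and 0 fell, with a median log2 difference of 0.33. EEF1A1, the elongation factor that delivers aminoacyl-tRNA, rose 1.83-fold from 793 ± 54.8 to 1447 ± 97.2 FPKM (SD, n = 3, log2 difference 0.87), NPM1, a nucleolar chaperone, by 0.86, and the helicase EIF4A2 by 0.71. EEF2, with a TOP sequence too, had a log2 difference of -0.15 and did not pass. With TPM rescaling the same list gave 4 higher and 5 lower, and with the recovered reads as depth 5 higher and 2 lower.

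Regulators of TOP mRNAs and of ribosomal protein genes held 3 genes that rose and 4 that fell among 23 (median -0.05). These are 13% and 17.4%, against 23.3% and 18% of all tested genes. EIF4EBP1, an mTOR target that blocks cap-dependent initiation, fell from 139 ± 4.68 to 77.4 ± 15.3 FPKM (SD, n = 3, log2 difference -0.85). PCBP1, a poly(C)-binding protein, fell by 1.09 and the transcription factor SP1 by 0.43 on the log2 scale. LARP1, MTOR and MYC did not pass, with log2 differences of 0.04, 0.10 and -0.05. Under TPM rescaling 0 of the 23 were higher and 14 lower, where 7.88% and 40.2% of all tested genes were.

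Of 18 chaperones and importers of ribosomal proteins 5 rose and 1 fell, with a median log2 difference of 0.15. The share that rose, 27.8%, lay near the 23.3% of all tested genes. TPM rescaling gave 1 higher, 3 lower and a median of -0.17. The 1 that fell was TSR2, the chaperone that brings RPS26 into the small subunit, from 8.61 ± 0.316 to 6.70 ± 0.259 FPKM (SD, n = 3, log2 difference -0.32, limma adjusted p = 0.0184). This call was lost without saline 1, 2 or 3 (adjusted p = 0.073, 0.0546 and 0.0588) or without YQSHJD 2 (0.0699). RPS26 itself rose by 0.77. The import receptors TNPO1 and IPO7 rose by 0.68 and 0.59, and with TPM rescaling IPO7 lost its call (0.24, limma adjusted p = 0.121). BCCIP, which is known in yeast to escort a large subunit protein, rose by 0.55, a call lost without saline 1 (limma adjusted p = 0.0534) and with TPM rescaling (0.189).

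The list of the 5S particle and its partners had 5 higher and 4 lower of 9 tested, RPL5 and RPL11 among the higher. Of all tested genes 23.3% rose and 18% fell. RPF2 and RRS1 load the 5S particle onto the growing large subunit, and RPF2 rose by 0.59 while RRS1 fell by 0.65. CDKN1A, an inhibitor of cyclin-dependent kinases, rose by 0.42. MDM2 rose by 0.36, a call lost without saline 1 (adjusted p = 0.0844 with limma), saline 2 (0.0841) or YQSHJD 2 (0.0526). With TPM rescaling 0 of the 9 were higher and 4 lower, where 7.88% and 40.2% of all tested genes were.

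Of 13 factors for stalled or colliding ribosomes 7 rose and 0 fell, among them PELO (0.50), HBS1L (0.58) and ABCE1 (0.64), which split stalled ribosomes, and TPM rescaling gave 0 higher and 3 lower. Of 70 mitochondrial ribosomal proteins 24 rose and 1 fell, with a median of 0.21, and MRPL15, MRPS35 and MRPS23 had the smallest p (log2 differences 0.62, 0.86 and 0.67). Of 45 initiation factors 20 rose and 0 fell, with a median of 0.26, led by EIF4A2, EIF3D (0.52) and EIF2B3 (1.01). The shares that rose in these 3 lists were 53.8%, 34.3% and 44.4%, where 23.3% of all tested genes rose and 18% fell. With TPM rescaling the mitochondrial list gave 5 higher and 14 lower, and the initiation factors 4 higher and 6 lower. Of all tested genes 7.88% were higher and 40.2% lower on that scale. Several genes stand in more than 1 list, such as EIF4A2, BTF3, RACK1, RPL5 and RPL11.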

How the data were processed

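Per the labels' protocols, polyadenylated RNA was made into libraries with a TruSeq kit, and CASAVA 2.19 is named in the submitters' processing notes. The authors deposited FPKM values for 62709 genes with coordinates and gene lengths. No source used here names the aligner, counter, strand setting, annotation or build, and antisense or overlapping genes could share reads. A further 6 columns that match no sample were not used.

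A gene was tested if 3 or more of the 6 libraries had 1 FPKM or more (10966 genes). The test was run on log2(FPKM + 1) with limma 3.58.1 in R 4.3.3 (moderated, trend and robust prior, two-sided) between 3 YQSHJD and 3 saline libraries, with Benjamini-Hochberg adjustment at 0.05. Log2 differences include the pseudocount of 1 and understate changes of low genes, and folds are ratios of mean FPKM. FPKM times gene length gave whole reads for 100% of values within 0.01 reads. The depth implied by the FPKM values was 1.03 to 1.05 times the recovered reads in the saline libraries and 0.885 to 0.923 times in the YQSHJD libraries, and no source used here gives the origin of this factor. It raises YQSHJD values relative to their share of reads. Genes of few reads are imprecise (RPS25 has 19 to 25).

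The members, gene lists and tests were chosen with earlier results of these data known. Genes were named by a rule (the 8 highest and 8 lowest differences, the 5 highest and 5 lowest levels, members not passing the filter, paralogs with their parents, fixed members such as RPLP0 and RPL5, and the 3 smallest p of each list), and others were chosen after their values were seen. Some genes of this rule are counted but not reported here by name. Coding lengths (the longest annotated coding sequence), transcript GC content and median coding transcript lengths come from GENCODE release 29, which holds 58219 of the gene identifiers. GC content was known for 98.6% of tested genes, and trends were removed with loess (span 0.5). The fit was tested on simulated data. Alternatives were other scalings (TPM, median-of-ratios, centring on the members), filters and pseudocounts, removal of GC or length trends, limma-voom on recovered reads, a replicate block and leaving out each library. Depth from recovered reads, TPM without mitochondrial genes, the share outside the mitochondrial genome and centring on the median deviation were added after seeing the data.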

Additional observations from a re-analysis of the deposited data

How the results depend on the processing

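The scaling of the libraries moved the members most. As reported, 23 rose, 0 fell and the median was 0.13. TPM rescaling gave 1 higher, 21 lower and a median of -0.23 (all tested genes: 7.88% higher, 40.2% lower). The same without mitochondrial genes gave 10, 13 and -0.067 (12.6%, 29.8%). Recovered reads as depth gave 7, 7 and -0.073 (12.8%, 29.5%). Centring on the median level of the members gave 2, 24 and -0.19 (7.63%, 42.9%), and centring on their median deviation 10, 7 and -0.024 (12.5%, 26.8%). The lower calls were 1 with median-of-ratios scaling, 1 with the length trend removed, 4 with the GC trend removed and 1 with limma-voom. Of all tested genes 21%, 20.8%, 21.7% and 20.1% were lower there. No filter on low values left 11 higher among more genes tested, of which 6.04% were higher. Leaving out 1 library gave 12 to 31 higher, 0 lower in each case, and medians of 0.08 to 0.18. The higher count was 12 without saline 1, 13 without saline 2 and 14 without YQSHJD 2, where 14.5%, 15.7% and 17.6% of all tested genes were higher. These fits have fewer samples, and for the other settings the cause was not tested. With the replicate number as a block 14 were higher (18.4% of all tested genes). Same-numbered libraries did not deviate together (r = -0.24, -0.11 and -0.04), so the numbers did not pair the libraries. Differences of single genes turned sign, with a call before or after, under TPM rescaling in RPL12 (-0.11), RPL22 (-0.0091), RPL22L1 (-0.33), RPL23A (-0.051), RPL37A (-0.34), RPL39 (-0.29), RPL5 (-0.0028), RPL9 (-0.0066), RPS7 (-0.11), RPS12 (-0.079) and LARP1 (-0.31), and when centred on the median level in RPL12 (-0.073), RPL22L1 (-0.32), RPL23A (-0.014), RPL28 (-0.29), RPL37A (-0.30), RPLP1 (-0.27), RPS7 (-0.076) and RPS12 (-0.039). The difference in share of reads, -0.14 percentage points, was 0.18 outside the mitochondrial genome. Pseudocount 0.1, a filter at 5 FPKM and limma without trend and robust prior kept the count within 1.5 times of 23. Depth limits members of few reads, such as RPS25, RPS18, RPL17 and RPL7A.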
